A study of Zea mays with 2 samples.

Results

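Transcripts of the maize endosperm that were still detected in the mutant dek37, but were at least 4-fold lower than in wild type, are described here. The study compared endosperm of dek37 kernels with endosperm of wild-type (WT) kernels of Zea mays, both taken 18 days after pollination (DAP), with 1 RNA-seq library per genotype. The labels give the genotypes only as dek37 and WT: the allele, the genetic background, whether the WT kernels were siblings of the mutant ones and how many kernels were pooled are not stated. Read back from the deposited values, the libraries held 19106174 reads for dek37 and 18139532 reads for WT.

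Members were chosen on RPKM (reads scaled to the length of the feature and to the size of the library), the values in the deposited files. An entry of the files, which is a position with 1 value per library, was a member if it had at least 10 and under 300 RPKM in WT, at least 1 RPKM in dek37, and a dek37 to WT ratio of at most 0.25. This held for 118 of the 56848 entries, at 113 distinct loci. Of the 13230 entries inside these RPKM limits, called eligible entries below, the members made up 0.892%, and the 496 entries at least 2-fold lower in dek37 made up 3.75%. Because these values chose the members, their reduction is a description and not a finding, and with 1 library per genotype no difference has a replicate check or a p-value.

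As background, the starchy endosperm fills at this stage with starch and storage protein, made from a few very abundant transcripts, while most other genes are read at much lower levels. The dek (defective kernel) mutants of maize form kernels with impaired endosperm and embryo. DEK37 belongs to the pentatricopeptide repeat proteins, a large plant family of RNA-binding proteins that act mainly in mitochondria and chloroplasts. Its reported role is in the splicing of mitochondrial RNA.

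The entries carry positions but no gene names, and the build of these positions is not named. The gene table at hand is for the assembly Zm-B73-REFERENCE-NAM-5.0. None of the 50685 loci had the same start and end as a gene of that table, so members are named by chromosome, start and end as the files give them, with starts counted from 1. Their functions, their place in exons, introns or UTRs, their sequences and the tissue's marker genes were therefore not analysed here.

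The members as a group gave little of either library and were of moderate abundance in WT. Their sum was 811.5 RPKM in dek37 and 5527 RPKM in WT, which was 0.0668% of all RPKM in dek37 and 0.403% in WT. Their levels ran from 1.16 to 34.0 RPKM in dek37 (median 3.95) and from 10.2 to 238 RPKM in WT (median 26.4). Only 24 of the 118 kept 10 RPKM or more in dek37, and 15 were under 2 RPKM there. By rank among all 56848 entries, the median member stood at place 24646.5 in dek37 and at place 5965.5 in WT. Ranks within a library do not depend on the scaling between libraries, although they come from the same values as the rule.

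**Figure D1:**
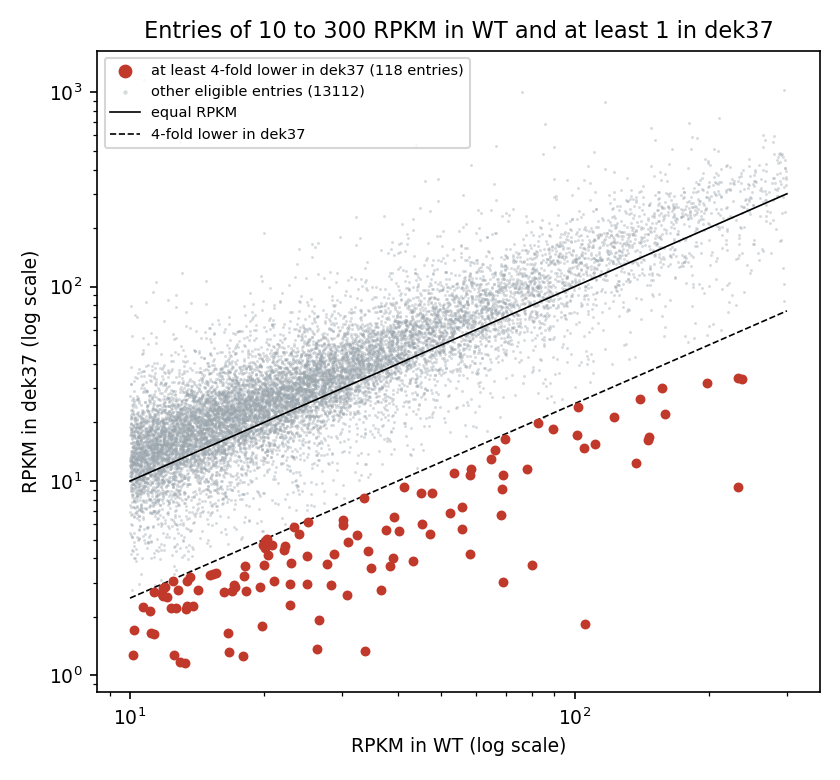
RPKM in dek37 against RPKM in WT for the 13230 eligible entries, both axes on a log scale, with the 118 members as large points, the solid line at equal RPKM and the dashed line at a 4-fold reduction. The members fill the space under the dashed line over the whole range of WT levels, and most of the other entries lie on or above the solid line.

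On the deposited scaling, the other eligible entries were higher in dek37 on the whole. Their ratio of dek37 to WT had a median of 1.23, with quartiles of 0.978 and 1.53. Of all eligible entries, 72.4% were higher in dek37. The median log2 ratio of the other eligible entries, 0.299, was smaller than the general shift removed by each alternative scaling (0.405, 0.411 and 0.308). Their higher level in dek37 thus did not hold under those scalings. The median member was 6.07-fold lower in dek37, at a ratio of 0.165 (quartiles 0.12 and 0.207). Reductions of 4-fold to 5-fold were seen for 35 members, of 5-fold to 8-fold for 53, of 8-fold to 16-fold for 24 and of 16-fold or more for 6. The mirrored rule (10 to 300 RPKM in dek37, at least 1 RPKM in WT, at least 4-fold higher in dek37) took 483 of 15709 entries, or 3.07%. This imbalance rested in part on the scaling of the libraries: with the median log2 ratio of entries of at least 10 RPKM set to 0, there were 187 entries 4-fold lower and 219 entries 4-fold higher, so that the lower ones made up 46.1% of both in place of 19.6%.

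The share of eligible entries that were members was larger at higher WT levels. It was 0.736% (42 of 5710) at 10 to 20 RPKM in WT, 0.862% (42 of 4874) at 20 to 50, 1.09% (18 of 1658) at 50 to 100 and 1.62% (16 of 988) at 100 to 300 RPKM. The floor of 1 RPKM in dek37 bears on these shares, since it leaves a smaller range of ratios to entries that were low in WT. The median reduction of the members was 5.64-fold in the lowest class and 7.09-fold in the highest.

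The largest reductions concerned 8 members at 7 loci. First came chromosome 3, 23896367 to 23898018, where 1.83 RPKM in dek37 stood against 105 RPKM in WT. It was 57.5-fold lower in dek37, with a 95% counting interval from 33.4 to 109. No other member was lower by more than 25.3-fold, although the intervals of several reach above 33.4.

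At chromosome 9, 10275486 to 10277630, the level was 1.33 RPKM in dek37 and 33.7 RPKM in WT. This was a 25.3-fold reduction (counting interval 13.9 to 51.3). At chromosome 5, 33080236 to 33080482, it was 9.36 RPKM in dek37 and 233 RPKM in WT, and the reduction was 24.9-fold (13.7 to 50.5). The counting intervals of these entries overlap, so their order is not settled by the depth. The second of them is short, with a span of 247 bp, and its 22 reads in dek37 and 520 reads in WT are the smallest even numbers that give these RPKM.

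The locus at chromosome 1, 228402997 to 228404285, held 2 entries, and both were among the lowest. One had 3.02 RPKM in dek37 and 68.9 RPKM in WT, and the other had 1.36 RPKM in dek37 and 26.3 RPKM in WT. They were 22.9-fold and 19.3-fold lower in dek37. Entries of 1 locus can share reads, so they are not independent observations.

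The best measured of the strongly reduced members lay at chromosome 3, 201092983 to 201095214, with 3.69 RPKM in dek37 (132 reads) and 80.1 RPKM in WT (2720 reads). Its 21.7-fold reduction had a counting interval from 16.9 to 28.2. A second entry at that locus had 0.926 RPKM in dek37 and 28 RPKM in WT, and was left out of the members only by the floor of 1 RPKM. The remaining pair lay at chromosome 5, 812641 to 814981, with 1.25 RPKM in dek37 and 17.9 RPKM in WT, and at chromosome 9, 113823520 to 113826614, with 1.93 RPKM in dek37 and 26.6 RPKM in WT. They were 14.3-fold and 13.8-fold lower, and with 10 and 18 reads in dek37 they were among the less precise.

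The 8 members with the highest WT level ran from 146 to 238 RPKM in WT. Apart from the chromosome 5 entry at 33080236 already given, they were between 5.24-fold and 8.95-fold lower in dek37. The top place belonged to a locus with 2 entries at chromosome 1, 263752064 to 263753301, which had 33.5 and 34.0 RPKM in dek37 and 238 and 233 RPKM in WT. These near-equal entries were also the highest members in the dek37 library.

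Next came the entry at chromosome 5, 12290388 to 12291897, with 31.9 RPKM in dek37 and 199 RPKM in WT. At chromosome 1, 258363413 to 258366763, the level was 22 RPKM in dek37 and 160 RPKM in WT, and the 7.26-fold reduction there rested on 722 reads in dek37 and 4974 reads in WT, the most of any member. Its counting interval, 6.5 to 8.13, was accordingly narrow. At chromosome 5, 76677057 to 76685854, there were 30.1 RPKM in dek37 and 157 RPKM in WT.

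The last of these were at chromosome 5, 25510983 to 25512470, with 16.8 RPKM in dek37 and 147 RPKM in WT, and at chromosome 2, 232364258 to 232366808, with 16.3 RPKM in dek37 and 146 RPKM in WT. They were 8.77-fold and 8.95-fold lower in dek37. The lowest dek37 level among the 8 was the 9.36 RPKM of the chromosome 5 entry at 33080236.

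How firmly the depth fixes each ratio was read from whole read numbers recovered from the RPKM values for all 118 members. The recovered numbers are the smallest that give the deposited values with 1 read or an even number of reads in each library. If odd numbers are allowed, smaller numbers also fit for some members. The medians of the recovered numbers were 35 reads in dek37 and 294 reads in WT. For 36 members no greater even number is possible if the length counted cannot exceed the span of the locus. At the largest such length the medians would be 98 reads in dek37 and 714 reads in WT. The exact (Clopper-Pearson) 95% counting interval of the ratio lay wholly below 0.5 for 113 members and wholly below 0.25 for 54. Since the members had been picked for a ratio of at most 0.25, this says how precise the ratios are and is no test of the genotypes. The intervals cover counting error only.

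**Figure D2:**
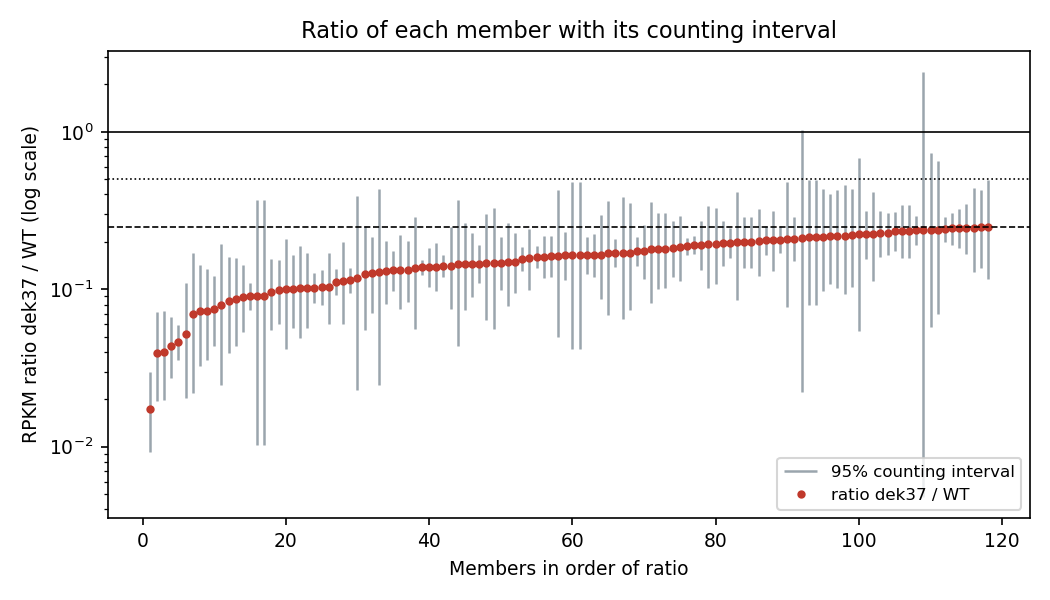
RPKM ratio of dek37 to WT for the 118 members in order of ratio (points; log scale), with exact 95% counting intervals (bars) and lines at 0.25, 0.5 and 1. The lowest point stands apart at 0.0174, the next 5 lie between 0.0396 and 0.0519, and the bars of 2 members cross 1.

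For 5 members the interval reached 0.5 or more, and in 2 of these it included 1. These 2, named after their values were seen, were the shortest loci of all: chromosome 5, 80194160 to 80194243, with 2.68 RPKM in dek37 (2 reads) and 11.3 RPKM in WT (8 reads), and chromosome 2, 30336977 to 30337069, with 2.25 RPKM in dek37 (4 reads) and 10.7 RPKM in WT (18 reads). At this depth and on the deposited scaling, neither interval excluded an equal level. The upper limits of the ratio were 2.4 at the first and 1.02 at the second. The alternative scalings lower every ratio by factors of 1.24 to 1.33, which would place the second limit below 1 but not the first. In all, 30 members had under 20 reads in dek37 by the recovered numbers, and 5 would still have under 20 at the largest length the span allows.

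The limit of 0.25 did not separate distinct groups. Just inside it were chromosome 8, 33387351 to 33389138, with 5.82 RPKM in dek37 and 23.4 RPKM in WT (ratio 0.249), chromosome 2, 232367455 to 232368404, with 5.06 and 20.4 RPKM in dek37 and WT (ratio 0.248), and chromosome 2, 6972021 to 6972995, with 4.94 and 20.1 RPKM in dek37 and WT (ratio 0.246). Just outside were chromosome 2, 210034645 to 210060115, with 21.4 RPKM in dek37 and 85.3 RPKM in WT, chromosome 8, 23636544 to 23638015, with 21.4 and 85.2 RPKM in dek37 and WT, and chromosome 2, 10717929 to 10719159, with 3.43 and 13.6 RPKM in dek37 and WT. Their ratios were 0.251, 0.251 and 0.252. Between 0.2 and 0.25 there were 35 entries, and between 0.25 and 0.3 there were 39.

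Locus span, the distance between the deposited start and end, was not used by the rule, and the members lay at short loci. Their median span was 1479.5 bp (95% order-statistic interval 1238 to 1767), against 3864 bp (3808 to 3929) for the other eligible entries. Spans under 1000 bp were found for 36 members (30.5%) and for 1620 of the 13112 others (12.4%). The difference was present at every WT level: the medians were 1522.5 bp for members and 3867 bp for others at 10 to 20 RPKM in WT, 1777.5 and 4083.5 bp for members and others at 20 to 50, 1151 and 3832.5 bp at 50 to 100, and 1499 and 3237 bp at 100 to 300 RPKM. With 2 libraries this compares sets of entries and carries no test.

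Short loci hold fewer reads at a given RPKM, so the read number goes with the span. Among the 88 members with at least 20 reads in dek37 the median span was 1501 bp, and among the 29 with at least 100 reads, a choice that favours long loci, it was 2197 bp. Short spans were also found among entries that were higher in dek37. Eligible entries at a ratio between 0.25 and 0.5 had a median span of 1642 bp, those between 0.5 and 1 one of 3682.5 bp, those between 1 and 2 one of 4191 bp, those between 2 and 4 one of 2880 bp, and the 94 above 4 one of 1822.5 bp.

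By span, 8 of 765 eligible entries under 500 bp were members (1.05%), 28 of 891 from 500 to 1000 bp (3.14%) and 44 of 1672 from 1000 to 2000 bp (2.63%). The share was 0.726% (26 of 3580) from 2000 to 4000 bp, 0.174% (7 of 4021) from 4000 to 8000 bp and 0.217% (5 of 2301) at 8000 bp or more. The shortest class rests on 8 members. The part that gene structure, read number or copies elsewhere in the genome had in this pattern was not tested.

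**Figure D3:**
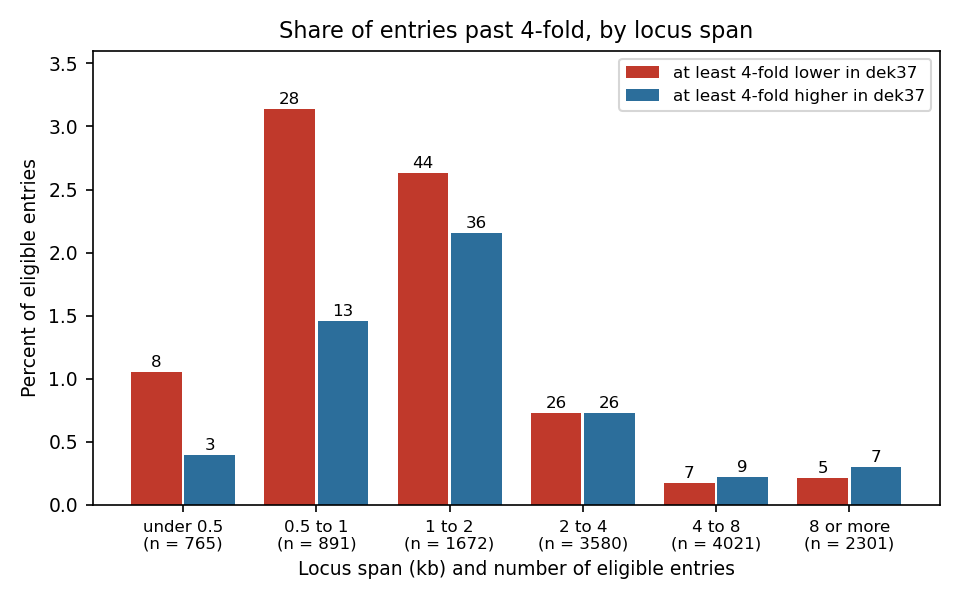
Percent of eligible entries that were lower in dek37 by 4-fold or more, or higher by 4-fold or more, by locus span, with the number of such entries above each bar. Both shares are largest between 500 and 2000 bp, where they reach 3.14% and 2.15%, and both are under 0.4% at 4000 bp or more.

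Most members were the only entry of their locus: 89 of 118 (75.4%), close to the 74.8% among all eligible entries. The other 29 lay at 24 loci with 2 to 4 entries, and the files do not say whether these are transcripts of 1 gene. At 5 of these loci both entries were members. Of these, the loci at chromosome 1, 228402997 and 263752064, are given above.

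At chromosome 8, 3928573 to 3929327, the entries had 4.22 and 5.68 RPKM in dek37 and 58.2 and 55.7 RPKM in WT. At chromosome 5, 25510983, the second entry had 3.67 RPKM in dek37 and 38.5 RPKM in WT, with a 10.5-fold reduction beside the 8.77-fold one of the first. At chromosome 2, 222962095 to 222965394, the entries had 1.63 and 4.66 RPKM in dek37 and 11.3 and 19.9 RPKM in WT, so that the reductions were 6.95-fold and 4.28-fold. Within each of the 5 loci the pair of reductions differed by less than 2-fold. Both entries had to pass the same ratio limit and can share reads, so this closeness is partly set by the choice.

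The remaining 19 loci held 22 further entries outside the member set, which did not all move with the member. Of the 18 with at least 1 RPKM in WT, 11 were lower and 7 higher in dek37 on the deposited scaling, and 6 met the 4-fold limit. Among the 7, those at chromosome 6, 160013893, and chromosome 9, 118937736, had log2 ratios of 0.288 and 0.307. Both are below the general shift removed by each alternative scaling. Among the 6, those at chromosome 1, 21757362, and chromosome 5, 141129200, each rest on 1 read in dek37 and 16 reads in WT. The median log2 ratio of the 18 was -0.98, with a range from -4.92 to 2.20 and an order-statistic interval (-2.28 to 0.85) that includes 0. The values of all entries of a locus were also summed. Each sum holds at least 1 member, chosen for its reduction, and 5 of the 24 loci hold members only. The rule thus fixes much of the outcome, and the sums are a description only. Of the 24 sums, 17 met the 4-fold limit, 21 were lower by 2-fold or more, and none was higher in dek37.

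At the other 3 loci, the reduced entry stood beside one that was higher in dek37 on the deposited scaling, so that the sums were less than 2-fold lower. They were named after their values were seen. At chromosome 9, 118937736 to 118942951, the member had 4.4 RPKM in dek37 and 22.2 RPKM in WT, while the other entry had 62.7 RPKM in dek37 and 50.7 RPKM in WT. At chromosome 2, 208123671 to 208130991, the member had 11.5 RPKM in dek37 and 58.3 RPKM in WT, and the other entry 69 RPKM in dek37 and 37.6 RPKM in WT. The minor and major entry of that locus thus differed between the libraries, with the member the higher one in WT only, and the same held at the third locus. This was chromosome 3, 191124531 to 191185971, where the member had 3.35 RPKM in dek37 and 15.6 RPKM in WT, and the other entry 17 RPKM in dek37 and 9.48 RPKM in WT. The ratios of the summed values were 0.921, 0.84 and 0.812. The alternative scalings lower these ratios further, by factors of 1.24 to 1.33. Under each of them the other entry at the chromosome 9 locus, at a deposited log2 ratio of 0.307, was no longer higher in dek37. How reads common to several entries were counted is not stated, so such shifts between entries of 1 locus are uncertain.

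**Figure D4:**
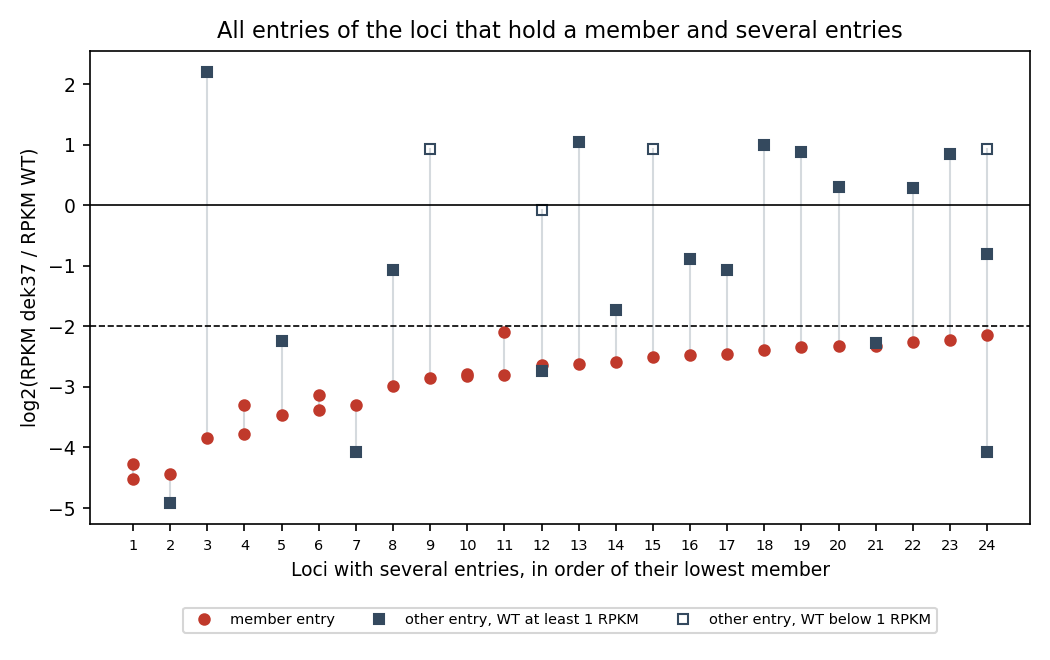
Log2 ratio of dek37 to WT for every entry of the 24 loci that hold a member and several entries (circles: members; filled squares: other entries with at least 1 RPKM in WT; open squares: other entries below 1 RPKM in WT), with lines at 0 and at the 4-fold limit. At some loci the entries lie close together below the limit, and at others a square lies above 0. The open squares above 0 each rest on 2 reads in dek37 and 1 read in WT.

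Members were spread over all 10 chromosomes. The share of eligible entries that were members ran from 0.607% (8 of 1317) on chromosome 8 to 1.15% (24 of 2081) on chromosome 1, around the 0.892% of the whole. None of the 2 mitochondrial, 9 chloroplast or 7 unplaced eligible entries was a member. Of 107 windows of 20 Mb, 44 held no member and 34 held 1. The window with the most, picked for that reason, was chromosome 3 from 180 to 200 Mb, with 6 members among 184 eligible entries.

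Neighbouring member loci had a median gap of 9.37 Mb over 103 neighbouring pairs, and 3 pairs lay within 200 kb. Gaps among equally many other eligible loci were not measured, so neither number is a result about the members. The closest pair was adjacent on chromosome 2, where the loci 232364258 to 232366808 and 232367455 to 232368404 were 646 bp apart with no locus between them. The first is among the most abundant members and the second, at 5.06 RPKM in dek37 and 20.4 RPKM in WT, is one of those just inside the limit. The nearest loci on either side with at least 10 RPKM in WT were not reduced to that extent, with log2 ratios of 1.02 and -0.035.

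The second pair, also on chromosome 2 with no locus between, was at 68582792 to 68602278 and 68636088 to 68637854. The first had 5.28 RPKM in dek37 and 32.3 RPKM in WT, and the second 9.33 RPKM in dek37 and 41.2 RPKM in WT. Their nearest neighbours of that level had log2 ratios of 0.56 and -0.80. The third pair was on chromosome 3, at 192033354 to 192034113 and 192220448 to 192222352, with 3 loci between. There the first had 4.38 RPKM in dek37 and 34.3 RPKM in WT, and the second had 11 RPKM in dek37 and 53.5 RPKM in WT. Separated from the second by 200 bp was a locus that did not share the reduction, with 39.6 RPKM in dek37 and 41.1 RPKM in WT. Whether paired loci share sequence was not analysed here.

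Loci around the members were compared with all loci of the same WT level outside the member loci (non-member loci). The 5 nearest other loci on either side with at least 10 RPKM in WT came to 1071 loci, at a median distance of 71.6 kb for the nearest and 589 kb for the fifth. Their median log2 ratio was 0.29 (order-statistic interval 0.24 to 0.33), against 0.30 (0.28 to 0.30) for all 12520 non-member loci of that level. The 12520 include the flanking loci. In dek37, 4.11% of the flanking loci were at least 2-fold lower (44 of 1071), against 3.35% of the non-member loci (420 of 12520). The values varied between positions. At the first locus after the member, towards higher coordinates, the median was 0.16 (-0.033 to 0.31) and 7.08% were at least 2-fold lower (8 of 113). There 57.5% were higher in dek37, against 72.5% of the 12520 non-member loci. At the first locus before the member 63.7% were higher, and at the third locus after it 7.08% were at least 2-fold lower. These differences between positions were not tested. Both medians move together with the scaling, and with the median log2 ratio of abundant entries set to 0 that of the flanking loci became -0.11.

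**Figure D5:**
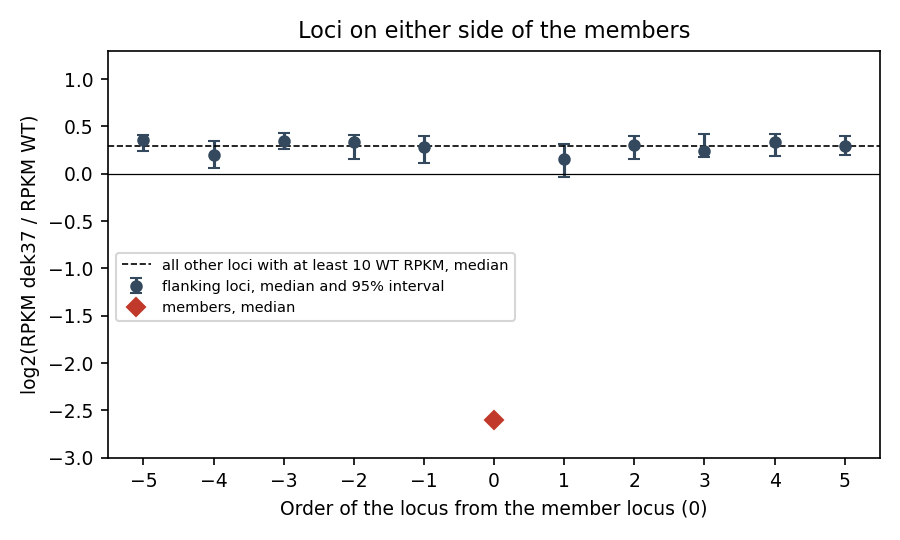
Median log2 ratio of dek37 to WT of the loci on either side of the members, by order from the member (points, with 95% order-statistic intervals), beside the median of the members (diamond) and that of all non-member loci with at least 10 RPKM in WT, flanking loci included (dashed line at 0.30). The 10 flanking positions lie between 0.16 and 0.35, and the members at -2.60.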

How the data were processed

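RNA-seq of 18 DAP endosperm was available from 1 dek37 and 1 WT library. The values are RPKM, per the file headers, as made and deposited by the authors; the aligner Bowtie 0.12.2 appears in the submitters' processing notes, and no source used here gives the build, annotation or counter. Rows of both tables were joined in file order, which is identical. RPKM are not counts, so no count model was fitted.

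Ratios are dek37 over WT without a pseudocount. Library totals came from the commonest product of RPKM and span; whole reads came from the smallest length of 30 to 25000 bases that gave, in both libraries, either 1 read or an even number (relative tolerance 1e-09). Counting intervals treat 2 reads as 1 fragment. Medians carry 95% order-statistic intervals, which take entries as independent. Scripts used Python 3.11.15, numpy 2.4.6, pandas 2.3.3 and scipy 1.17.1, and were tested on simulated data.

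Named entries were the 8 lowest ratios, the 8 highest WT levels, member loci within 200 kb of each other, loci with 2 members, and 3 entries on either side of the ratio limit. The members and lists were chosen with earlier results of these data known. Lists of marker genes need names and were not used. Alternatives were pseudocounts, scalings, RPKM limits, ratio limits and 1 entry per locus.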

Additional observations from a re-analysis of the deposited data

How the results depend on the processing

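No library could be left out. No paired analysis was possible because there was only 1 sample of each genotype. Against 118 members as deposited, there were 42 with a pseudocount of 5, 76 with a WT floor of 20 RPKM, 1830 with no floor in either library, 195 at 3-fold, 187 with the median log2 ratio of entries of at least 10 RPKM set to 0 and 189 with a trimmed mean of M values. The last 2 scalings kept 112 of the 118. The counts under the other settings stayed within 1.5 times. The scalings removed a general shift of 0.41, 0.41 and, with totals made equal after leaving out the 50 most abundant entries, 0.31 on the log2 scale. Under these, the same 118 members had a median log2 ratio of -3.01, -3.01 and -2.91 in place of -2.60. With members chosen anew, the median was -2.33 with a pseudocount of 5, -2.46 with a WT floor of 5, -2.40 with no floor, -2.83 at 5-fold and -2.19 at 3-fold. Each of these limits fixes the median in large part. The flanking loci had a median of 0.21 with 1 locus on either side and 0.37 with a floor of 1 RPKM, and -0.11 after the median scaling, which lowers every ratio alike. The split of 4-fold calls was 161 lower and 271 higher with equal totals (37.3% lower) and 189 lower and 216 higher with the trimmed mean (46.7%). The median span, the other entries of member loci and the counting intervals stayed within their intervals or within 1.5 times under the settings tried. The median span of members with at least 20 reads and the scalings of unchanged members were added after seeing the data. Depth limits the members with few reads in dek37, and near-identical gene copies may share reads.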

Other observations

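Entries that met the ratio of 0.25 but not the RPKM limits bordered the members on either side. Above the WT ceiling, 14 of the 354 entries with at least 300 RPKM in WT (3.95%) were at least 4-fold lower in dek37, with levels from 10.3 to 1123 RPKM in dek37 and from 318 to 5502 RPKM in WT. Their median ratio was 0.199 and their median span 1251 bp. One of them shares the locus at chromosome 5, 12290388, with a member and had 59.2 RPKM in dek37 and 394 RPKM in WT. Below the dek37 floor, 17 entries with 10 to 300 RPKM in WT had a median of 0.733 RPKM in dek37 and 16.8 RPKM in WT, with a median span of 1456 bp. A further 55 entries with 5 to 10 RPKM in WT and at least 1 RPKM in dek37 met the ratio. The entries in the RPKM ranges of the 17 and of the 55 were not counted, so no shares are given for them. These sets were picked on the same values as the members, so their short spans beside those of the members are a description only.

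Within 100 kb of 3 of the 118 members lay 1 or more loci with a mean of at least 1000 RPKM. How many of all eligible entries lie as close to such a locus was not counted. The number is therefore not a result about the members. The member at chromosome 4, 5081480 to 5082435, with 2.96 RPKM in dek37 and 25 RPKM in WT, had 3 of them. At 5.38 kb lay a locus with 1518 RPKM in dek37 and 4297 RPKM in WT, at 6.93 kb one with 10772 RPKM in dek37 and 30455 RPKM in WT, and at 58.1 kb one with 11962 RPKM in dek37 and 32408 RPKM in WT. The member at chromosome 1, 161779520 to 161779864, with 6.71 RPKM in dek37 and 68.1 RPKM in WT, was 4.06 kb from one with 1897 RPKM in dek37 and 4750 RPKM in WT. The third, at chromosome 1, 79131877 to 79132681, was 62.7 kb from a locus that was higher in dek37, with 1483 RPKM in dek37 and 729 RPKM in WT. Whether these members hold reads of their abundant neighbours was not tested. They were singled out after their positions were seen.

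At chromosome 5, 812641, the second entry went the opposite way from its member, with 7.86 RPKM in dek37 (164 reads) and 1.72 RPKM in WT (34 reads), so that the major entry of that locus differed between the libraries.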
